A study of Rattus norvegicus and Bos taurus with 12 samples.

Results

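H19, IGF2 and the IGF axis were followed through 2 comparisons, one in cultured cells of calf hearts and one in rat heart muscle cells. The set held 10 genes given by symbol: the long non-coding RNA H19, the growth factors IGF2 and IGF1, the receptors IGF2R and IGF1R, and the binding proteins IGFBP2, IGFBP3, IGFBP4, IGFBP5 and IGFBP7. Genes were matched by symbol in any case, which found 6 of the 10 among the 2115 genes listed for the calf cells and all 10 among the 7052 listed for the rat cells. The 6 found in both tables were H19, IGF2, IGF2R, IGFBP2, IGFBP4 and IGFBP7. The genes were picked with values of these same comparisons in view, and both tables hold only genes that had been selected for a difference between the groups. The values of the 10 genes are therefore a description, no p-value is given for them, and counts of them past a threshold carry no weight as a test. That IGF1, IGF1R, IGFBP3 and IGFBP5 are not listed for the calf cells does not show that they were unchanged there.

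Cardiac fibroblasts (Cfib) were grown from right ventricular biopsies of neonatal calves. Control (CO) calves lived at the ambient altitude of Denver, and calves with pulmonary hypertension (PH) had been kept under reduced atmospheric pressure. All Cfib were low-passage cultures held in serum-free medium after confluence. Adult rat ventricular myocytes (ARVM) were isolated with collagenase from healthy adult Sprague Dawley rats. Control ARVM were freshly isolated, as the study describes them in its results, and PH-CM ARVM were cultured for 7 days in conditioned medium (CM) of PH Cfib. Each group had 3 libraries. The labels give the treatment of every library as serum of cows living at low or high altitude, which differs from that account, and the groups are named here after the study. The study took the Cfib of each group from 3 animals. For ARVM no source used here says whether libraries came from separate animals, so their SD (n = 3 libraries) may be technical in part. The ARVM comparison joins the medium with the time in culture, and these cannot be told apart.

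The IGF axis controls growth and survival of many cell types. IGF1 and IGF2 are secreted ligands that signal through the tyrosine kinase receptor IGF1R, while IGF2R binds IGF2 and carries it to lysosomes for degradation. The IGFBP proteins bind the ligands outside the cell and either hold them back from the receptor or keep them in reserve, and proteases can release the ligand again. H19 and IGF2 are imprinted neighbors that share enhancers, with H19 expressed from the maternal and IGF2 from the paternal copy. Both are high before birth and, in rodents, fall in most tissues afterwards. H19 is also the precursor of the microRNA miR-675, and an intron of IGF2 holds miR-483.

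In the rat RefSeq annotation (build GRCr8), no gene with a name other than a provisional LOC number lies between H19 and Igf2 on chromosome 1. The mature microRNAs inside these genes are shown because they show what the H19 and Igf2 loci hold besides the transcripts counted here. The capitals mark the seed, bases 2 to 8, with which a microRNA pairs with its targets. The miR-675 arms lie inside H19, at chr1:207161800-207161821 (5p) and chr1:207161766-207161786 (3p), and those of miR-483 lie inside Igf2, at chr1:207247903-207247924 (5p) and chr1:207247865-207247886 (3p), all on the minus strand.
rno-miR-675-5p: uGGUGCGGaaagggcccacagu
rno-miR-675-3p: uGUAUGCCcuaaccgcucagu
rno-miR-483-5p: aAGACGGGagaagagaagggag
rno-miR-483-3p: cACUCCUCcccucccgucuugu

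The hairpin of miR-675 within H19 reads as follows, with the 5p arm and then the 3p arm in capitals.
Mir675 hairpin: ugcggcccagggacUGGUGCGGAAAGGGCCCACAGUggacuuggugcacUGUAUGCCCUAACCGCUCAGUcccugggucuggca

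None of the 4 seeds was shared with another of the 724 mature rat microRNAs in the same table. Neither Mir675 nor Mir483 is among the genes listed for ARVM. The libraries were made from RNA depleted of ribosomal RNA, and mature microRNAs were not measured by them. The sources do not say whether reads were counted by strand. H19 also lies within the span of a provisional lncRNA and Igf2 overlaps a provisional gene, so reads of overlapping transcripts could not be separated here.

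In Cfib all 6 listed genes of the axis were higher in PH than in CO, with log2 fold changes from 1.16 for IGFBP2 to 6.64 for H19. H19 and IGF2, the imprinted pair, were the furthest apart between the groups, followed by the IGF2 receptor and then the binding proteins. The deposited signal has steps that differ between genes, as values corrected for gene length do, but no source used here states its unit. Comparisons of levels between genes below hold only if it is corrected for length. All 6 means were higher, as for 59.7% of the genes listed. All 6 passed an adjusted p of 0.05 with limma, as did 97.5% of the genes listed (58.2% higher, 39.4% lower), and all 6 had a log2 fold change of 1 or more, as did 19.7% of the genes listed, with 14.3% at −1 or less. IGFBP2 was below 1 after rescaling by the median of ratios (0.94) and with a pseudocount of 10 (0.38). In all 6 the groups did not overlap, as in 100% of the genes listed. The median log2 fold change of the 6 was 2.04, against 0.33 over all 2115 genes. The rule for the set used these contrasts, and nothing is read from these counts.

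H19 had a signal of 1.99, 1.32 and 2.24 in CO Cfib 1, 2 and 3 and of 319, 273 and 255 in PH Cfib 1, 2 and 3. The lowest PH library was 114 times the highest CO library. The mean rose from 1.85 ± 0.477 (SD, n = 3) to 282 ± 32.7, a 153-fold difference. H19 stood first of the 2115 genes by log2 fold change with the pseudocount of 1. Such ranks depend on the pseudocount, and PRSS2 had a larger ratio of means (0.0444 in CO and 61.6 in PH). IGF2 had a signal of 0.910, 0.523 and 0.594 in CO Cfib and of 42.3, 37.4 and 37.0 in PH Cfib. It was thus below 1 in all CO libraries and above 37 in all PH libraries. Its mean was 0.676 ± 0.206 in CO and 38.9 ± 2.93 in PH, a 57.6-fold difference and a log2 fold change of 4.58 (standard error 0.11), the 8th highest.

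IGF2R, the receptor that clears IGF2, had a signal of 66.3, 55.8 and 26.1 in CO Cfib and of 274, 258 and 238 in PH Cfib. CO Cfib 3 was the low library of its group, the others lay close together, and the groups did not overlap. The log2 fold change was 2.45 (standard error 0.32), and without CO Cfib 3 it was 2.06. IGF1R, the receptor that carries the growth signal, is not listed for Cfib, so the balance of the receptors could not be described there.

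IGFBP7, which binds IGFs weakly and is abundant in matrix, had a signal of 223, 209.5 and 294 in CO Cfib and of 720.5, 757 and 743 in PH Cfib. IGFBP4, an inhibitory binding protein, had a signal of 49.5, 60.8 and 66.7 in CO Cfib and of 169.7, 159 and 154 in PH Cfib. IGFBP2 had a signal of 1.85, 1.44 and 2.80 in CO Cfib and of 5.67, 5.65 and 5.65 in PH Cfib. The 3 binding proteins thus differed by similar folds (3.06, 2.73 and 2.79 between the means) from levels that were far apart. The 3 PH libraries were nearly equal for IGFBP2, with an SD of 0.00932. Over the 6 genes the median coefficient of variation was 28.1% in CO and 6.05% in PH. Over all genes listed it was 13.7% in CO and 5.01% in PH, so the smaller spread in PH was not particular to them.

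**Figure D1:**
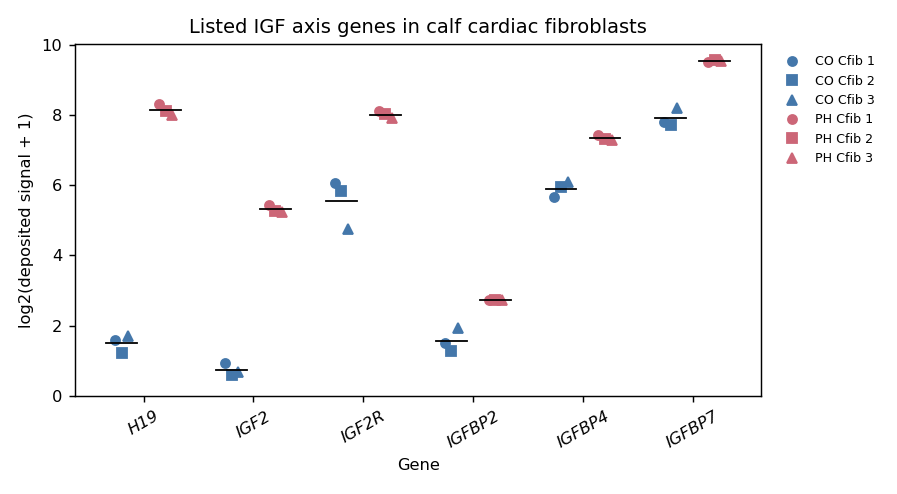
The plot shows log2(deposited signal + 1) of the 6 listed IGF axis genes in each of the 3 CO Cfib (blue) and 3 PH Cfib (red) libraries, with symbols for library number and black lines for group means of the log2 values. In every gene the PH libraries lie above the CO libraries, and CO Cfib 3 is the low point of IGF2R.

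The order of the genes by signal also differed between the groups. In CO Cfib it ran IGFBP7, IGFBP4, IGF2R, IGFBP2, H19 and IGF2, where IGFBP4 and IGF2R overlapped in their ranges, as did IGFBP2 and H19. In PH Cfib it ran IGFBP7, H19, IGF2R, IGFBP4, IGF2 and IGFBP2, where only H19 and IGF2R overlapped. H19 thus moved from the 5th to the 2nd place. The ratio of H19 to IGF2 within a library was 2.18, 2.53 and 3.78 in CO Cfib and 7.53, 7.30 and 6.89 in PH Cfib. For IGF2 over IGF2R the ratio rose 9.91-fold, from 0.0153 ± 0.00684 in the CO libraries (SD, n = 3) to 0.152 ± 0.00589 in the PH libraries. On this scale the transcript signal of IGF2 stayed below that of IGF2R in all 6 libraries, with a higher ratio in PH.

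In ARVM, 8 of the 10 genes were higher and 2 were lower in PH-CM ARVM than in control ARVM. H19, Igf1, both receptors and 4 of the 5 binding proteins were higher, whereas Igf2 and Igfbp5 were lower. Each value is a number of reads over the size factor of its library with no correction for length, so differences between libraries are compared here and not levels between genes. A higher mean was seen in 55.1% of the genes listed. All 10 passed an adjusted p of 0.05 with limma, as did 97.6% of the genes listed (53.9% higher, 43.7% lower). A log2 fold change of 1 or more was seen in 6 of the 10 against 32.3% of the genes listed, and one of −1 or less in 2 against 16%. In all 10 the groups did not overlap, as in 100% of the genes listed. The log2 fold changes of the 10 ran from −2.29 to 5.38, with a median of 2.16, against 0.37 over all 7052 genes. Here too the genes were chosen with this contrast in view, and nothing is read from these counts.

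H19 had normalized counts of 208.9, 137 and 125 in control ARVM 4, 5 and 6 and of 635, 520.2 and 1239.8 in PH-CM ARVM ha2, ha209 and ha211. PH-CM ARVM ha211 was far above the other PH-CM libraries, and all 3 were above the controls. The log2 fold change was 2.27 (standard error 0.34), and without PH-CM ARVM ha211 it was 1.90. Igf2 had normalized counts of 877, 1024 and 693 in control ARVM and of 149.7, 132 and 265 in PH-CM ARVM. It was thus high in all freshly isolated libraries and several times lower in all PH-CM libraries. Its mean fell from 865 ± 166 (SD, n = 3) to 182 ± 72.2, 4.75-fold lower, with a log2 fold change of −2.29 (standard error 0.27).

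The imprinted neighbors therefore had opposite directions in ARVM and the same direction in Cfib. Within each ARVM library, the ratio of the H19 count to the Igf2 count was 0.238, 0.134 and 0.180 in control ARVM and 4.24, 3.94 and 4.68 in PH-CM ARVM, a 23.3-fold difference between means. The ratio varied less among the PH-CM libraries than H19 or Igf2 did alone, since both genes were lowest in PH-CM ARVM ha209 and highest in PH-CM ARVM ha211.

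**Figure D2:**
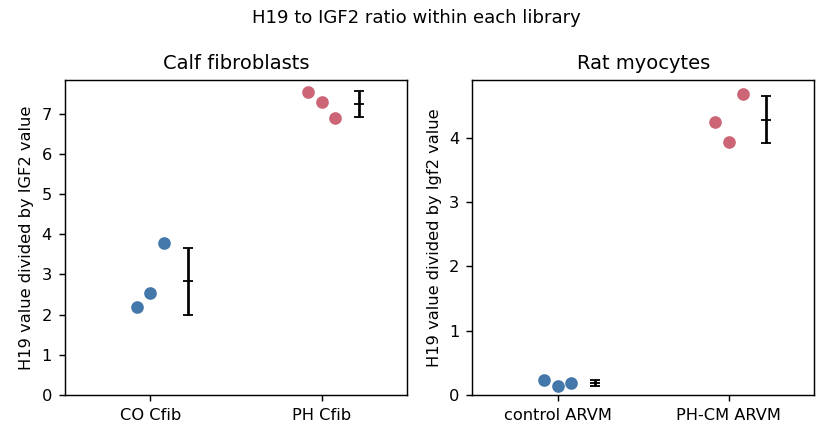
The left plot gives the H19 signal divided by the IGF2 signal in each Cfib library, and the right plot the H19 count divided by the Igf2 count in each ARVM library, with black marks for the mean and SD of 3 libraries. The ratio is higher in all PH Cfib libraries (6.89 to 7.53) than in CO Cfib (2.18 to 3.78), and in all PH-CM ARVM libraries (3.94 to 4.68) than in control ARVM (0.134 to 0.238). The scales of the Cfib signal and the ARVM counts differ, so the panels are not comparable in height.

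Igf1, the other ligand, had normalized counts of 123, 39.6 and 45.5 in control ARVM and of 1140.4, 417 and 1288 in PH-CM ARVM. Control ARVM 4 was the high and PH-CM ARVM ha209 the low library of its group, and the lowest PH-CM value was still 3.38 times the highest control value. The log2 fold change was 3.78 (standard error 0.54). The ratio of the Igf1 count to the Igf2 count rose from 0.0817 ± 0.0529 (SD, n = 3) to 5.21 ± 2.25. The ligands thus moved apart, with Igf1 higher and Igf2 lower in every PH-CM library.

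Both receptors differed by smaller folds than the ligands. Igf2r had normalized counts of 4984, 4439.9 and 4477.2 in control ARVM and of 7542, 8373 and 7670.1 in PH-CM ARVM, a log2 fold change of 0.76 (standard error 0.07). Igf1r had normalized counts of 283, 293 and 412 in control ARVM and of 522, 585 and 551 in PH-CM ARVM, a log2 fold change of 0.76 (standard error 0.16). The ratio of Igf2r to Igf1r was 10.9 to 17.6 in control ARVM and 13.9 to 14.5 in PH-CM ARVM, so the PH-CM values lay inside the range of the controls.

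Among the binding proteins, Igfbp2 rested on the fewest reads. It had normalized counts of 6.33, 0 and 5.17 in control ARVM, which correspond to 4, 0 and 5 reads, and of 188, 82.0 and 206 in PH-CM ARVM. The exact Poisson 95% interval of the reads in control ARVM 5 was 0 to 3.69, which covers counting error only. The log2 fold change of 5.38 (standard error 0.78) was 4.46 without control ARVM 5 and 3.54 with a pseudocount of 10, so its size is uncertain.

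Igfbp4 had normalized counts of 120.3, 75.0 and 140.5 in control ARVM and of 2010.1, 1113 and 2095 in PH-CM ARVM. Igfbp3, the main carrier of IGFs in blood, had normalized counts of 79.1, 51.4 and 62.0 in control ARVM and of 292, 458 and 584 in PH-CM ARVM. Igfbp7 had normalized counts of 753, 749.8 and 719 in control ARVM and of 3337, 2461 and 3481 in PH-CM ARVM. These 3 genes were 15.5-fold, 6.93-fold and 4.18-fold higher in the means, with every PH-CM library more than 3 times the highest control library. Igfbp5 had normalized counts of 199, 209.9 and 190.1 in control ARVM and of 65.0, 56.9 and 53.3 in PH-CM ARVM. It was the only one of the 5 binding proteins that was lower, by 3.42-fold between the means and with a log2 fold change of −1.76 (standard error 0.20).

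**Figure D3:**
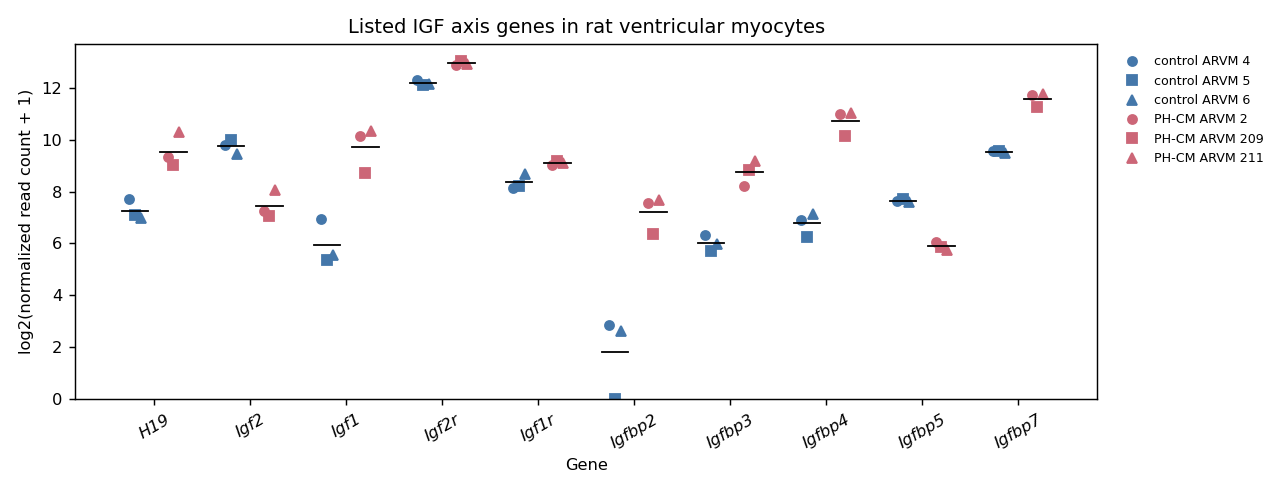
The plot shows log2(normalized read count + 1) of the 10 IGF axis genes in each of the 3 control ARVM (blue) and 3 PH-CM ARVM (red) libraries, with symbols for the library and black lines for group means of the log2 values. Igf2 and Igfbp5 lie lower and the other 8 genes higher in PH-CM ARVM, and the control libraries of Igfbp2 are at 0 to 6.33 normalized counts.

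Side by side, H19 had a log2 fold change of 6.64 in Cfib and 2.27 in ARVM, and IGF2 of 4.58 and −2.29. IGF2R had one of 2.45 and 0.76, IGFBP2 of 1.16 and 5.38, IGFBP4 of 1.44 and 3.94, and IGFBP7 of 1.62 and 2.04. IGF2 was the only one of the 6 genes with opposite signs. The comparisons concern other species, cells and conditions and other scales, and the difference between them was not tested.

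**Figure D4:**
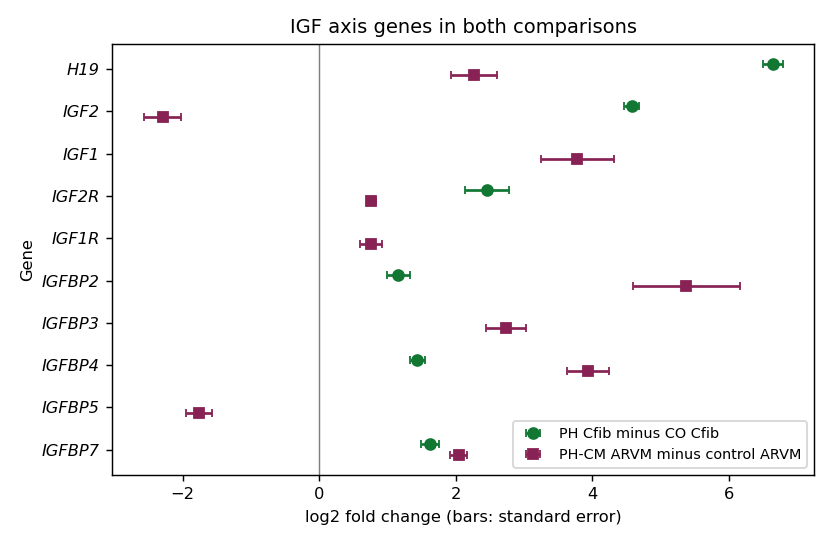
The plot gives the log2 fold change of each of the 10 genes with its standard error, for PH Cfib minus CO Cfib (green circles, 6 genes) and PH-CM ARVM minus control ARVM (purple squares, 10 genes). IGF2 is at 4.58 in Cfib and at −2.29 in ARVM, and H19 is to the right of 0 in both.

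Libraries of a group differed in a shared way. In PH-CM ARVM, 7 of the 10 genes were highest in library ha211 and 6 were lowest in library ha209, against 37.2% and 42.9% of all genes listed. The summed counts of 10 fibroblast marker genes had the same order, at 101597, 87076 and 130046 in PH-CM ARVM ha2, ha209 and ha211. So had those of smooth muscle or pericyte markers (39770, 33280 and 52051) and of leukocyte markers (3772, 2939 and 4179). Sums of cardiomyocyte markers (216858, 194226 and 175943) and endothelial markers (4437, 5191 and 5113) had other orders. In control ARVM, 6 of the 10 genes were highest in library 4 (42.2% of all genes listed), the one with the fewest reads on listed genes (12122463, against 17712896 and 17926137 in the others). In PH Cfib, 5 of the 6 genes were highest in library 1 and the same 5 were lowest in library 3, against 40.5% and 38.7% of all genes listed.

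Markers of several cell types, myocytes included, moved with the ARVM comparison. Over all listed genes, 53.9% passed as higher and 43.7% as lower, so counts of markers past the threshold are a description. All 10 of 10 fibroblast markers were higher in PH-CM ARVM (adjusted p under 0.05, limma), with a summed count of 1451 to 1959 in control and 87076 to 130046 in PH-CM ARVM. Of 10 cardiomyocyte markers, 9 were listed, 8 lower and 1 (Myh7) higher, with a sum of 1342308 to 1361499 in control and 175943 to 216858 in PH-CM ARVM. Of 10 endothelial markers, 9 were lower and 1 (Emcn) higher, with a sum of 11007 to 12733 against 4437 to 5191. Of 10 leukocyte markers, 9 were listed, 8 higher and 1 (Cd74) lower, with a sum of 6839.7 to 7012 against 2939 to 4179. The fall of this sum was that of Cd74, since the other 8 listed markers were higher. Of 10 smooth muscle or pericyte markers, 8 were higher and 2 (Rgs5 and Cspg4) lower, with a sum of 4484 to 5246 against 33280.0 to 52051. None of the listed markers was at 0 in a whole group. The study reported α-smooth muscle actin protein, and periostin RNA and protein, in its PH-CM-treated myocytes. The proteins were set beside cells in serum-free medium, and the periostin RNA result came in part from this same sequencing. Here the RNA of Postn and Acta2 is among the markers that were higher than in freshly isolated cells. In bulk RNA, the number of cells of a type, RNA per cell and expression by another cell type cannot be told apart. The part of these cell types in the values of H19, Igf2 and the other IGF genes was not tested.

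In Cfib, where the labelled cell type is the fibroblast, 4 of 10 fibroblast markers were listed (COL1A2, TCF21, FBLN1 and POSTN; not COL1A1, COL3A1, PDGFRA, DCN, THY1 or LUM) and all 4 were higher in PH, with a sum of 2005 to 2656 in CO and 6423 to 6721 in PH. Beside these counts of markers, 58.2% of all listed genes passed as higher and 39.4% as lower. No cardiomyocyte marker was listed. Of the leukocyte markers 6 were listed, 5 higher and 1 (CD14) lower, with sums that overlapped (10.1 to 12.8 in CO and 12.1 to 13.7 in PH), and C1QA was at 0 in all CO libraries. Of the smooth muscle or pericyte markers 7 were listed, 6 higher and 1 (CNN1) lower, with a sum of 123 to 158 against 264 to 272. The single endothelial marker listed, ERG, was higher (1.87 at most in CO against at least 3.28 in PH). The part of these in the values of the IGF genes was not tested.

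The rest of the pathway was read from a list of 87 further genes, grouped by role, among which the tests below run over all genes of a table. Both tables hold only genes selected for the contrast, and the list was chosen with earlier results known. The adjusted p-values below are therefore descriptive, and small ones carry no weight as a test. In Cfib 12 of the 87 were listed, 11 passed the threshold and all 11 were higher, beside 58.2% of all listed genes that passed and were higher. NRAS, singled out after its value was seen, was the one that did not pass (log2 fold change 0.13, adjusted p = 0.0631 from limma). Rescaling by the median of ratios gave 9 higher and 1 lower (over all listed genes 839 higher and 869 lower, against 1230 and 833). The count of 11 was 4 when the PH libraries, which differ little from each other, are averaged into 1 sample.

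Within this list, the 4 genes with a log2 fold change of 1 or more in Cfib were imprinted genes. Of 23 imprinted genes and regulators of imprinting besides H19, IGF2 and IGF2R, 5 were listed, while the other 18 are not listed. All 5 were higher in PH, beside 58.2% of all listed genes that passed and were higher. The cell cycle inhibitor CDKN1C had a signal of 3.08, 2.39 and 3.92 in CO Cfib and of 15.4, 12.2 and 12.7 in PH Cfib (log2 fold change 1.82, standard error 0.16, adjusted p = 9.86e-05 from limma). The long non-coding RNA MEG3 had a log2 fold change of 1.81, the hydrolase-like gene MEST one of 1.81 and the transcription factor PLAGL1 one of 1.19. MEG3 and MEST stayed at or below a signal of 0.719 in every CO library. The size of their change therefore depends on the pseudocount, from 0.42 (pseudocount 10) to 3.03 (0.1) for MEG3 and from 0.45 to 2.85 for MEST. PLAGL1 had, like IGF2R, its low CO value in CO Cfib 3 (14.3, against 35.6 and 32.6), and without that library its log2 fold change was 0.79. It did not pass with the PH libraries averaged into 1 sample (adjusted p = 0.126 from limma).

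Downstream of the receptors, changes in Cfib were smaller. The adaptors SHC1 and GAB1 had log2 fold changes of 0.93 and 0.55, and the kinase AKT1 and the transcription factor FOXO4 of 0.47 and 0.49. AKT1 and FOXO4 did not pass the threshold after rescaling by the median of ratios (adjusted p = 0.137 and 0.116 from limma), where GAB1 was at 0.29. With the PH libraries averaged, none of the 4 passed (adjusted p = 0.0815 for SHC1, 0.0576 for GAB1, 0.0997 for AKT1 and 0.137 for FOXO4, from limma). The protease HTRA1, which cleaves binding proteins, had a log2 fold change of 0.79, and IGF2BP3, which binds the IGF2 mRNA, one of 0.44. Both, and Htra1 in ARVM, were singled out after their values were seen. No further ligand, receptor or binding protein was listed for Cfib.

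In ARVM 48 of the 87 genes were listed and all 48 passed the threshold, 25 higher and 23 lower, beside 53.9% of all listed genes that passed as higher and 43.7% as lower. Among ligands, receptors, binding proteins and proteases with their inhibitors, 6 of 7 listed genes were higher. Of the adaptors 5 of 6 were higher, and of the PI3K, AKT and mTOR genes 14 of 19 were lower. Differences between these groups were not tested.

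Igfbp6, a binding protein that prefers IGF2, had normalized counts of 17.4, 18.2 and 17.6 in control ARVM and of 317, 336 and 359 in PH-CM ARVM (log2 fold change 4.17, adjusted p = 1.23e-06 from limma). Pappa, the protease that cleaves IGFBP4, had no read in control ARVM and normalized counts of 18.9, 53.5 and 36.4 in PH-CM ARVM. Its PH-CM mean was 30.6 times the value that 3 reads over the control group would give. Stc2, an inhibitor of Pappa, rose as well (log2 fold change 3.71), and so did Htra1 (0.53). Lrp1, an endocytic receptor, had a log2 fold change of 3.94, whereas the growth hormone receptor Ghr fell by 1.03 on the log2 scale. Cilp, a matrix protein that binds IGF1, rose from 11, 0 and 21 reads in control ARVM to 140, 57 and 106 in PH-CM ARVM (adjusted p = 0.0181 from limma). Its log2 fold change was 1.94 without control ARVM 5, in which it had no read, and without PH-CM ARVM ha2 or ha211 it did not pass (adjusted p = 0.0718 and 0.0579 from limma), nor with a pseudocount of 0.1 (0.0614).

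Among the adaptors, Irs2 had normalized counts of 435, 583 and 529.9 in control ARVM and of 2594, 3214 and 2321 in PH-CM ARVM (log2 fold change 2.39). Shc1 had a log2 fold change of 1.09, and the phosphatase Ptpn11 fell by 0.93 on the log2 scale. In the PI3K group Pik3r1, the regulatory subunit, had the largest change, from 2221 ± 314 (SD, n = 3) to 659.7 ± 26.4 normalized counts. Foxo1 fell by 1.12 on the log2 scale, and Ddit4, an inhibitor of mTOR, had a log2 fold change of 1.03. Of 5 RAS and MAPK genes 4 were lower, among them Hras (−0.73) and Map2k2 (−0.49). No IGF2 mRNA-binding protein was listed.

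**Figure D5:**
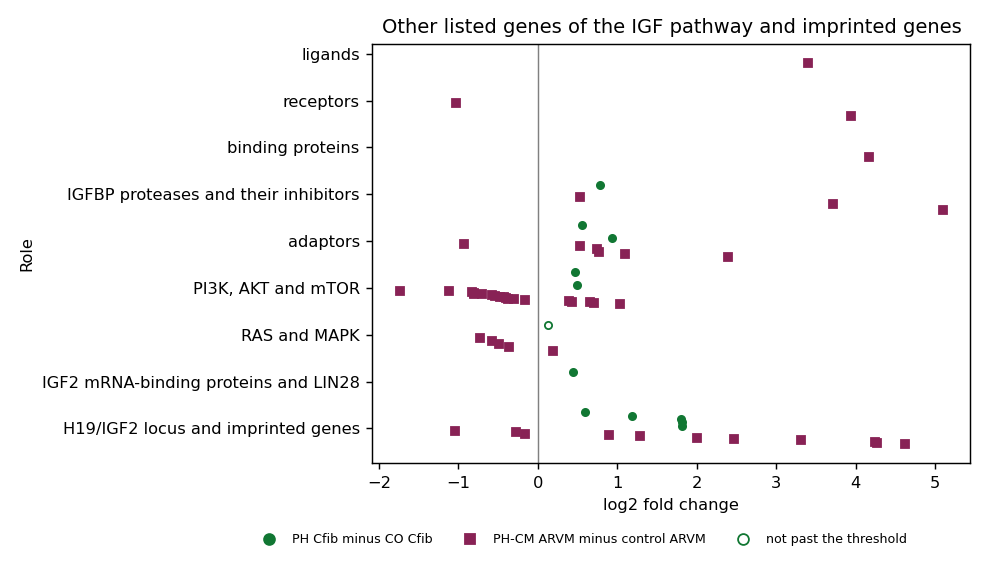
Each point is the log2 fold change of 1 listed gene of the pathway list, by role, in Cfib (green circles, 12 genes) and ARVM (purple squares, 48 genes). The open circle is NRAS, which did not pass the threshold. Pappa, at the far right, had no read in control ARVM, so its fitted value depends on the pseudocount. Points of the PI3K, AKT and mTOR group in ARVM lie mostly left of 0.

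Of the same 23 imprinted genes and regulators of imprinting, 11 were listed for ARVM, 8 higher and 3 lower. Over all listed genes, 53.9% passed as higher and 43.7% as lower. Cdkn1c had normalized counts of 34.8, 64.3 and 57.8 in control ARVM and of 923, 1152 and 932 in PH-CM ARVM (log2 fold change 4.27, adjusted p = 2.52e-06 from limma). Ndn (4.62), Dcn (4.24), Plagl1 (3.31), Zfp57 (2.47), Sgce (2.003) and Mest (1.29) had positive log2 fold changes. Dcn is also one of the fibroblast markers above, and Zfp57 is a regulator of imprinting. Kcnq1, a potassium channel gene of the same chromosomal region, fell by 1.05 on the log2 scale. Plagl1 had no read in control ARVM 6, and without that library its log2 fold change was 2.02. Its call was lost without PH-CM ARVM ha2 or ha211 (adjusted p = 0.0536 and 0.0524 from limma) and with a pseudocount of 0.1 (0.0530).

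The genes around the H19 and Igf2 pair went in both directions in ARVM, as did the listed genes as a whole. Of the 28 named genes nearest to the pair, 14 on each side in the rat annotation, 9 were listed for ARVM. Of these, 5 were higher and 4 lower, beside a higher mean in 55.1% of all genes listed. Nothing about the locus is read from this count. Cd81 lies 6 places from H19 on the Igf2 side. It was higher in both experiments, with log2 fold changes of 0.93 in ARVM and 0.78 in Cfib. Cdkn1c was the other neighbor listed in both. Nap1l4 (−0.76), Kcnq1 (−1.05), Dusp8 (−0.80) and Tnfrsf26 (−1.33) were lower in ARVM, and Lsp1 (3.71), Slc22a18 and Tnnt3 were higher. Tnnt3 had no read in control ARVM and 10.1 ± 0.793 normalized counts in PH-CM ARVM (SD, n = 3), and Slc22a18 went from 16.0 ± 22.5 to 139 ± 34.6. The window was drawn after the values of H19 and Igf2 were seen, and a neighbor listed in Cfib was matched by its rat symbol.

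Genes with the pattern most like H19 and IGF2 were found by the Euclidean distance between log2(value + 1) over the 6 libraries, each gene centered on its mean. Only genes that reached a mean of 10 in one of the groups were compared. Among 1381 such Cfib genes, the nearest to H19 were PRSS2 (distance 1.04), EFEMP1 (1.42), ASPN (1.44), ISLR (1.89) and SPARCL1 (2.11), and IGF2 was 7th (2.55). The nearest to IGF2 were COL18A1 (0.450), ULBP21 (0.474), TNXB (0.527), SPARCL1 (0.558) and ISLR (0.764). Among 6904 such ARVM genes, the nearest to H19 were Pole (0.331), Hcls1 (0.363), C4a (0.541), Tnfaip2 (0.560) and Nsg1 (0.590). The nearest to Igf2 were Il2rg (0.468), Arhgef15 (0.469), Lrat (0.563), Tmem252 (0.616) and Scin (0.624). Of the other IGF genes, Igfbp7 (88th, distance 0.903) and Igfbp3 (130th, 0.997) were the closest to H19, and Igfbp5 (245th, 1.15) the closest to Igf2. These distances describe 6 libraries of genes selected for a difference between the groups. From H19 in Cfib they mostly follow the log2 fold change, where H19 stood first. Its 5 nearest genes ran in that order, from 5.90 for PRSS2 to 4.94 for SPARCL1, before IGF2 at 4.58. The place of IGF2 thus repeats its fold change, and no shared regulation is read from it.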

How the data were processed

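RNA was depleted of ribosomal RNA and sequenced on a HiSeq4000. Per the paper's methods and the submitters' processing notes, the authors used HISAT2 and StringTie with the bosTau8 (calf) and rn6 (rat) genomes, normalized with DESeq2 (versions not given in the sources used here), and kept genes with p under 0.05. For Cfib the deposited numbers behave as a length-corrected signal of the FPKM or TPM kind, while the methods describe normalized counts, and their depth is unknown. For ARVM the deposited signal is a count of reads over the size factor of its library. In each library 100% of them were whole multiples of 1 step within 0.01 reads, which gave back the reads (12122463 to 18842171 per library on listed genes).

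All genes of a table were compared on log2(value + 1) with limma 3.58.1 (R 4.3.3, eBayes with trend), Benjamini-Hochberg adjustment over the table and a threshold of 0.05. Fold changes on this scale understate those of low genes. The smallest two-sided p of an exact permutation test at this size is 0.1. edgeR 4.0.16 (6815 genes called) and DESeq2 1.42.0 (6668) were run on the recovered ARVM reads. The members and gene lists were chosen with earlier results of these data known. Named were the members, genes of the extracellular, IGF2 mRNA-binding and imprinted roles past the threshold with an absolute log2 fold change of at least 1, the 3 largest changes of each other role and the 5 genes nearest to H19 and to IGF2. A gene that this rule names is not reported here. Rat symbols were matched to RefSeq GRCr8, in which 6570 of 7052 were found and 6964 with synonyms. That build differs from rn6, so only sequences and their positions and the order of genes were taken from it.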

Additional observations from a re-analysis of the deposited data

How the results depend on the processing

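The direction of each of the 16 values of the 10 genes (6 in Cfib and 10 in ARVM) was the same under every alternative run, which were other pseudocounts, a minimum mean (which removed IGFBP2 in Cfib), scaling by median of ratios, limma without the trend, each library left out, the block, the averaging of the PH libraries and, in ARVM, edgeR and DESeq2. Of 207 such values, 195 moved by less than 1 SD. In Cfib the pseudocount moved the log2 fold change of H19 between 4.62 (pseudocount 10) and 7.20 (0.1) and that of IGF2 between 2.19 and 5.68. Rescaling by the median of ratios shifted the median log2 fold change of Cfib by −0.27. The split of calls there went from 1230 higher and 833 lower to 839 and 869, that of the pathway list from 11 and 0 to 9 and 1, and all 6 genes remained higher (IGFBP2 at 0.94, IGFBP4 at 1.15, IGFBP7 at 1.34), and the cause of the shift was not tested. Requiring an absolute log2 fold change of 1 left 720 Cfib genes with 4 of the pathway list and 3405 ARVM genes with 19. Averaging the PH Cfib libraries into 1 sample, chosen after seeing the data, left 1038 genes (of 2063) and 4 of the list (of 11), with fewer samples. With 1 library left out, Cfib calls ran from 1910.0 to 2052 and ARVM calls from 6452 to 6695, and the list counts from 11 to 12 and from 41 to 47. With a replicate block, 1983 Cfib genes and 11 of the list passed. Deviations from the group means of Cfib libraries of equal number correlated at 0.258, 0.0312 and 0.259. Those of libraries of unequal number correlated at −0.245 to 0.102. Whether libraries of equal number share a batch or a pairing was not tested. No paired analysis was possible because the replicate numbers differ between the groups in ARVM. Of 398 values of the other named genes, 13 lost the threshold and none turned its direction.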
